A study of Canis lupus familiaris with 8 samples.

Results

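The miRNAs of the imprinted DLK1-DIO3 region were examined in canine serum. The rule that chose them used names only, though it was set with earlier results of these data known. It took every canine (cfa) or murine (mmu) name whose number was on a set list for this cluster, with any letter or arm and without star forms. The list did not hold 8 further murine names of the region, which are given separately below. This gave 79 of the 1224 names analysed, of which 35 were canine and 44 murine, and they covered 44 different miRNA numbers. Serum was drawn from 8 client-owned Doberman Pinschers, whose age the labels give as 7 to 11 years. The paper's own listing gives a younger age for 1 dog with DCM. There were 4 dogs with dilated cardiomyopathy (DCM, arrays DoCM5 to DoCM8) and 4 healthy dogs (control, arrays Con1 to Con4). Per the methods, the dogs with DCM were in the occult stage, that is, before overt heart failure. All received pimobendan, an ACE inhibitor and either sotalol or amiodarone, so that disease and treatment cannot be told apart. Each array held the serum RNA of 1 dog, labelled with Cy3, with 40 features per miRNA name.

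The DLK1-DIO3 region carries protein-coding genes that are expressed from the paternal chromosome, such as DLK1, RTL1 and DIO3, and long non-coding RNAs expressed from the maternal chromosome, such as MEG3. The miRNAs of the region are cut from these maternal transcripts and form one of the largest miRNA clusters of placental mammals. They are best known from embryo, placenta, brain and muscle stem cells, and in most adult tissues they are weakly expressed. In serum, a miRNA shed by fewer cells and a miRNA shed in smaller amounts by each cell cannot be told apart.

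Between 10817 and 14000 features per array (22.1% to 28.6%) were well above background, the flag of the scanner software for a feature that clearly exceeds its local background. No feature was saturated. DoCM5 stood apart from the other arrays. Its median correlation with them was 0.924, against 0.957 to 0.968 for the other arrays, and it was the brightest, with a median log2 signal of 5.09 over all detected names. The paper left out a sample named DoCM8 for its low correlation with the others, while in the deposited arrays DoCM8 had the highest median correlation (0.968). The paper also describes the signals of that sample as intensified, while the median log2 signal of the array labelled DoCM8 was 4.03. The names in the paper and in the labels may therefore not match, and it is open whether the label DoCM8 marks the sample that the paper left out. The label was followed, and the comparison was made over 7 arrays without DoCM8, over all 8 arrays, and over 7 arrays without DoCM5. The slide row was the same for all DCM arrays and the other row held all controls, and an effect of the row and one of the group cannot be told apart. Marker miRNAs of blood cells were found on these arrays in full: 7 of 7 erythrocyte names, 9 of 9 platelet names and 6 of 6 leukocyte names were detected. Of the heart and skeletal muscle names, 4 of 7 were detected.

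Most of the cluster was not detected in serum. Features well above background on 2 or more arrays of either group were kept, and a miRNA was called detected with at least 1 kept feature. By this rule 9 of the 79 members were detected (11.4%), against 438 of all 1224 names (35.8%). The contrast was also seen with 3 arrays of a group required, where 6 members were detected, beside 32.4% of all names. With 1 array of a group enough, the shares lay close together, with 62 of the 79 members beside 987 of all 1224 names (80.6%). Under that filter 1 reading well above background among the 320 of a name was enough. Of the negative control readings 0.362% were well above background, so this setting cannot separate detected names from names at background. Under the 2-array rule the share was the same in both listings, with 4 of 35 canine members (11.4%) and 5 of 44 murine members (11.4%). Among all canine names 54.0% were detected, and among all murine names 30.2%. With other canine names without a star the share was 152 of 253 (60.1%), and with other murine names without a star it was 214 of 572 (37.4%). Names are not independent measurements, since related miRNAs share sequence, and these shares are given without a test.

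Firm support, with at least 50% of the features kept, was found for 6 of the 79 members (7.59%, against 28.5% of all names). These were cfa-miR-134, cfa-miR-370, cfa-miR-494 and mmu-miR-341, each with 40 kept features, mmu-miR-432 with 37 and mmu-miR-770-3p with 23. Of these, 3 are murine names. Per the paper, some murine probes may fail to match canine miRNAs. Whether the signals of these 3 names came from the named miRNAs was not tested. The support of the other members that passed was thin. For mmu-miR-300, 7 features were kept, all of them of 1 probe, for mmu-miR-667 4 features, and for cfa-miR-376a a single feature.

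Features of cfa-miR-134, cfa-miR-370 and cfa-miR-494 were well above background without exception, 40 of 40 on each of the 8 arrays. mmu-miR-341 followed with 39 on DoCM7 and 40 on every other array. In contrast, mmu-miR-432 varied from 9 features on DoCM5 to 35 on DoCM6, and mmu-miR-770-3p from 9 on DoCM5 to 25 on Con3. These last 2 miRNAs lay close to the detection limit, and their number of features above it was lowest on the array that stood apart.

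**Figure D1:**
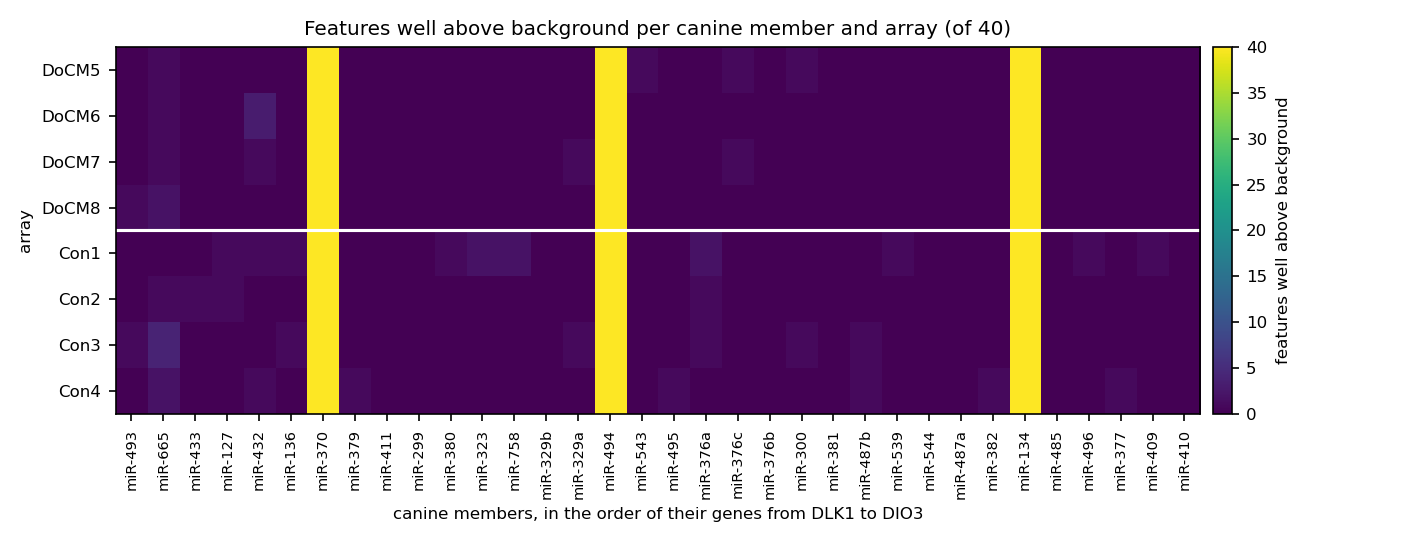
Number of features well above background, of 40 per name, for the 34 canine members with a known gene (columns, in the order of their genes from DLK1 to DIO3) on each of the 8 arrays (rows, DCM above the white line and control below it). miR-370, miR-494 and miR-134 show 40 of 40 features on every array, while the canine names around them show 0 to 4.

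The detected canine members did not lie next to each other in the genome. In the gene table of the canine assembly UU_Cfam_GSD_1.0, 39 miRNA genes lie between DLK1 and DIO3, and 34 of the 35 canine members matched genes there. No gene was matched for cfa-miR-369. Counted from DLK1, MIR370 was the 7th of these genes, MIR494 the 16th and MIR134 the 34th. The canine names on either side of cfa-miR-370 were cfa-miR-136 and cfa-miR-379, with 2 and 1 readings well above background among the 320 readings of each name (40 features on 8 arrays). cfa-miR-494 lay between cfa-miR-329a with 2 such readings and cfa-miR-543 with 1, and cfa-miR-134 between cfa-miR-382 with 1 and cfa-miR-485 with 0. So each miRNA with 320 of 320 readings above background had direct neighbours with at most 2. A gene named MIR341, MIR667 or MIR770 was not matched in this table, and these miRNAs were measured through their murine names only.

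Features of the 70 undetected members were rarely well above background, which follows in part from the filter that defined them. Of these members, 17 had no feature well above background on any of the 8 arrays, 46 had 1 or 2 such readings in all, and 7 had 3 or more. The highest totals were 12 of 320 readings for cfa-miR-665 and 11 for mmu-miR-493. Over all arrays, 105 of 22400 readings of the undetected members were well above background (0.469%), beside 29 of 8000 readings of the negative controls (0.362%), which no such filter had selected. Per array the share ranged from 0.107% on DoCM8 to 1.0% on Con1 in the undetected members, and from 0.1% to 0.7% in the negative controls. It was higher in the control group in both kinds of feature, with 34 readings of undetected members in the DCM arrays and 71 in the control arrays, beside 8 and 21 readings of negative controls. A low level of these miRNAs in serum would not be detectable at this signal, and their absence was not shown.

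**Figure D2:**
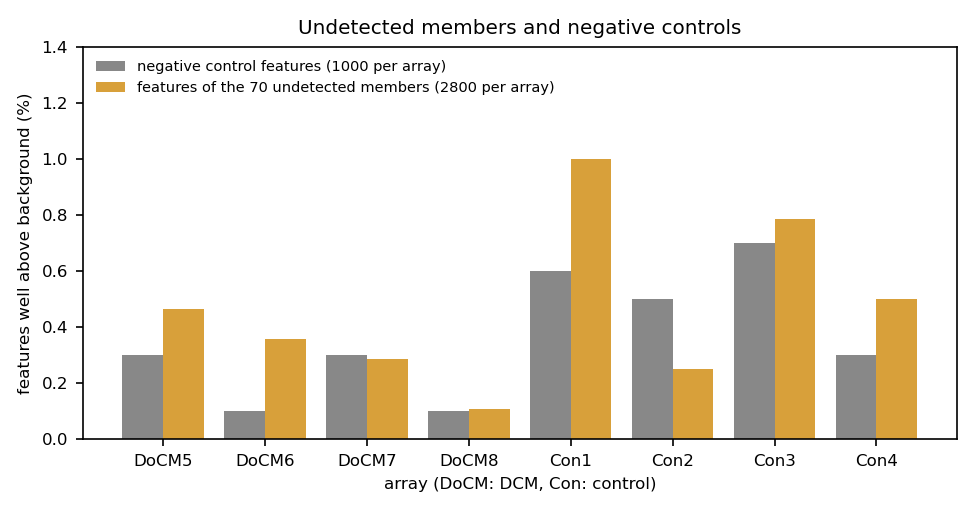
Percent of features well above background per array, for 1000 negative control features (grey) and for the 2800 features of the 70 undetected members (yellow). Both stay at or below 1.0% on every array, and both reach their highest values on control arrays, Con3 for the negative controls and Con1 for the members.

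For most miRNAs listed for both species the listings gave the same answer, non-detection, and for 3 they differed. There were 13 names shared by the canine and the murine listing. None was detected in both, 10 were detected in neither, and 3 in one only. miR-432, which lies in the stretch antisense to RTL1, had 37 kept features under its murine name and 0 under its canine name, where 6 of 320 readings were well above background. miR-300 had 7 kept features under its murine name and 0 under its canine name. miR-376a, a miRNA known to be edited from adenosine to inosine, had 1 kept feature under its canine name and 0 under its murine name. Probe sequences were not used here, and whether these listings differ in sequence was not tested.

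No star form of the cluster was detected (0 of 29 names with the members' numbers). Of 8 further murine names of the same region outside the rule, 2 were detected (25.0%): mmu-miR-3070a with 40 kept features and mmu-miR-3070b-3p with 32. Other miRNA clusters on the same arrays ranged widely. Of the rodent Sfmbt2 names, 6 of 48 were detected (12.5%), and of the names of the X-linked miR-188 cluster, 9 of 14 (64.3%).

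The next comparison asked whether any member differed between dogs with DCM and healthy dogs. The mean signal over the kept features was normalized by the vsn model, which gives values on a log2-like scale (glog2), and compared with limma over all 438 detected names. A miRNA was called changed at p under 0.05 with a fold change over 1.5. Over the 7 arrays without DoCM8, 0 of the 9 detected members were called, against 11 of 438 names (2.51%). Over all 8 arrays 2 members were called, both lower in DCM, against 17 names (3.88%), of which 9 were lower in DCM (2.05%). Without DoCM5, again 2 members were called lower in DCM, against 23 names (5.25%), of which 15 were lower (3.42%). The 2 members were cfa-miR-376a and mmu-miR-341 in both cases. Of these, cfa-miR-376a had passed the filter through control arrays only, which favoured a lower value in DCM, and its call is not evidence of a change. After Benjamini-Hochberg adjustment over all names, limma called no member and no other name in any of the 3 sets (0.0% of names). At an unadjusted p under 0.05 it called 0, 2 and 2 members, beside 11, 18 and 29 names (2.51%, 4.11% and 6.62%). The smallest adjusted p over all names was 1.0, 0.399 and 0.26. With no filter on dim features, 6 members were called, beside 41 of 1224 names (3.35%), and none of these 6 was among the 9 detected members.

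mmu-miR-341, a miRNA known from the rodent DLK1-DIO3 cluster, was the only firmly detected member whose groups did not overlap. It had no matched canine gene, and what its probes bound in canine serum was not tested. Its glog2 values were 3.79, 3.65, 4.04 and 4.06 on DoCM5, DoCM6, DoCM7 and DoCM8, and 4.82, 4.23, 4.63 and 4.37 on Con1, Con2, Con3 and Con4. Every DCM array was below every control array, a pattern found in 5 of all 438 names over 8 arrays (1.14%) and in 7 over the 7 arrays without DoCM8 (1.6%). Over all 8 arrays, the DCM mean was 3.89 ± 0.20 (SD, n = 4). The control mean was 4.51 ± 0.26 (SD, n = 4).

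The log2 difference of mmu-miR-341 was -0.62 over all 8 arrays (SE 0.27, limma p = 0.0366, adjusted p = 0.961, exact permutation p = 0.0286). Over the 7 arrays without DoCM8 it was -0.68 (SE 0.32, limma p = 0.0531, adjusted p = 1.0, exact permutation p = 0.0286), and with the slide column as a random block it was called (-0.69, limma p = 0.0485). Without DoCM5 it was -0.59 (SE 0.23, limma p = 0.032, adjusted p = 0.637, exact permutation p = 0.0571), and here 24 of all names had every DCM array below every control array (5.48%). Of the 21 alternatives to the fit without DoCM8, 6 called mmu-miR-341 and 15 did not, with limma p from 0.032 to 0.253. The permutation tests were two-sided, over 35 splits of 3 against 4 arrays or 70 of 4 against 4, and 0.0286 was the smallest p they can give. Both probes of mmu-miR-341 showed the same separation, with differences of -0.63 and -0.62 over 8 arrays. They were read on the same arrays with the same normalization, so they are not separate evidence on the groups. The separation appeared only after normalization. Before it, the mean signals were 26.8, 14.3, 11.1 and 15.9 intensity units on DoCM5 to DoCM8 and 36.0, 14.8, 39.0 and 16.2 on Con1 to Con4, and the groups overlapped.

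**Figure D3:**
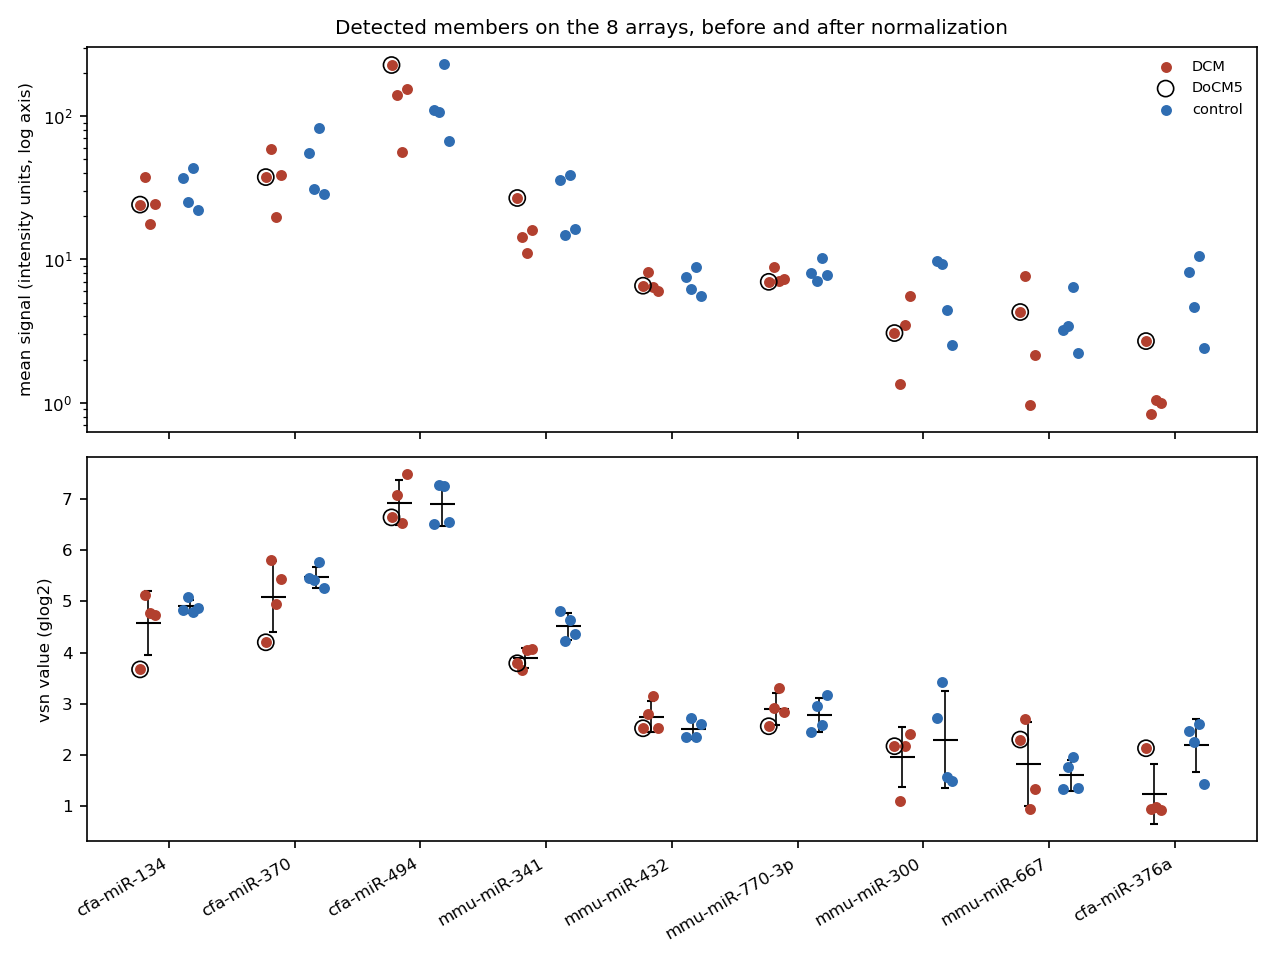
Mean signal in intensity units on a log axis (top) and normalized glog2 value (bottom) of the 9 detected members on each array, DCM in red and control in blue, with DoCM5 circled, and with the mean and SD of the 4 arrays of each group in the lower panel. Only mmu-miR-341 has all DCM arrays below all control arrays after normalization, and DoCM5 is the lowest array for cfa-miR-134 and cfa-miR-370 there.

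cfa-miR-376a was the other member called over all 8 arrays and without DoCM5, and its values lay at the background. Its glog2 values were 2.13, 0.94, 0.98 and 0.92 on DoCM5, DoCM6, DoCM7 and DoCM8, and 2.46, 2.25, 2.61 and 1.44 on Con1, Con2, Con3 and Con4. The kept feature was well above background on Con1 and Con3 and on no DCM array. The values of the DCM arrays and of Con2 and Con4 therefore have no order among themselves. For this miRNA the data give only an approximate bound for control over DCM, whose control mean includes Con2 and Con4. It came to 1.0-fold over the 7 arrays without DoCM8 and was under 1 in the other sets.

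The fitted log2 difference of cfa-miR-376a was -0.84 over the 7 arrays without DoCM8 (SE 0.42, limma adjusted p = 1.0), -0.95 over all 8 arrays (SE 0.37, limma adjusted p = 0.961) and -1.24 without DoCM5 (SE 0.30, limma adjusted p = 0.26). Its single kept feature had been kept for being high on 2 control arrays, so that these values describe the feature and do not test a difference. These values rested on 1 of 40 features. With no filter, over all 40 features, the fitted difference was -0.87 over the 7 arrays without DoCM8 and was not called.

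cfa-miR-134, a miRNA known from neurons, where it restrains the size of dendritic spines, had glog2 values of 3.67, 5.13, 4.78 and 4.73 on the DCM arrays DoCM5 to DoCM8 and of 4.84, 5.08, 4.80 and 4.87 on Con1 to Con4. The control arrays lay within a narrow range and the DCM arrays DoCM6 to DoCM8 fell close to it, while DoCM5 was lower by more than 1. The log2 difference was -0.37 over the 7 arrays without DoCM8 (95% interval -1.21 to 0.47, limma adjusted p = 1.0, exact permutation p = 0.371), and -0.02 without DoCM5 (95% interval -0.49 to 0.46). Between features of the same array the coefficient of variation was 12.3% to 19.4%, and the 4 probes gave differences between -0.45 and -0.34.

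cfa-miR-370 had the same lowest and highest arrays as cfa-miR-134, while the order of the other arrays differed. Its glog2 values were 4.20, 5.80, 4.94 and 5.44 on DoCM5 to DoCM8 and 5.46, 5.42, 5.76 and 5.27 on Con1 to Con4. DoCM5 was again the lowest array and DoCM6 the highest of all 8. DoCM7 at 4.94 also lay below every control array. The log2 difference was -0.50 over the 7 arrays without DoCM8 (95% interval -1.37 to 0.37, limma adjusted p = 1.0, exact permutation p = 0.314), and -0.08 without DoCM5 (95% interval -0.67 to 0.50). With DoCM6 left out of the 7 arrays it moved the other way, to -0.91, and cfa-miR-370 was called, as were 32 of all 438 names in that setting, 27 of them lower in DCM. For both miRNAs the DCM arrays spread more widely than the control arrays in the 7 arrays, with an SD of 0.76 against 0.13 for cfa-miR-134 and of 0.80 against 0.20 for cfa-miR-370. Without DoCM5 the SD in DCM was 0.22 and 0.43.

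cfa-miR-494 did not separate the groups. Its glog2 values were 6.64, 7.08, 6.53 and 7.48 on DoCM5 to DoCM8 and 6.52, 7.27, 7.26 and 6.55 on Con1 to Con4. Arrays above 7 and arrays near 6.5 occurred in both groups. The log2 difference was -0.15 over the 7 arrays without DoCM8 (95% interval -0.91 to 0.62, limma adjusted p = 1.0, exact permutation p = 0.629), and it turned to 0.03 over all 8 arrays and to 0.13 without DoCM5. The coefficient of variation over its features was 40.6% to 48.7% per array. This spread includes a difference in level between its 2 probes. One ranged from 7.05 to 7.99 over the 8 arrays and the other from 5.66 to 6.63.

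The weaker members were mmu-miR-432 and mmu-miR-770-3p. At least 50% of the kept features of mmu-miR-432 were well above background on DoCM6, DoCM7 and Con3 only, that is, on 2 of 4 DCM arrays and 1 of 4 control arrays. mmu-miR-432 had glog2 values of 2.52, 2.80, 3.15 and 2.53 on DoCM5 to DoCM8 and of 2.34, 2.73, 2.35 and 2.60 on Con1 to Con4. Its fitted log2 difference was 0.32 (95% interval -0.38 to 1.02, limma adjusted p = 1.0, exact permutation p = 0.171) over the 7 arrays without DoCM8. With DoCM7 also left out it was 0.15, and with no filter on dim features it was 0.03. Values on the arrays without such detection have no order, and no ranking of the arrays is read from them.

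mmu-miR-770-3p, whose gene lies within the MEG3 transcript, had glog2 values of 2.56, 2.91, 3.31 and 2.84 on DoCM5 to DoCM8 and of 2.44, 2.95, 2.58 and 3.17 on Con1 to Con4. The log2 difference over the 7 arrays without DoCM8 was 0.14 (95% interval -0.61 to 0.89, limma adjusted p = 1.0, exact permutation p = 0.571). It was detected in this way on all control arrays and on DoCM6, DoCM7 and DoCM8. Of these, DoCM7 was the highest, and DoCM6 and DoCM8 lay inside the range of the control arrays. Mean signals of both miRNAs were low, from 5.55 to 8.80 intensity units for mmu-miR-432 and from 6.97 to 10.3 for mmu-miR-770-3p, beside a lowest signal well above background of 6.21 to 8.11 on these arrays.

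The last 2 detected members were seen on some arrays only. mmu-miR-300 was above background on Con1 and Con2 in at least 50% of its kept features and on no DCM array. Its glog2 values ranged from 1.09 to 2.40 in DCM and from 1.49 to 3.43 in control. The values of all DCM arrays, Con3 and Con4 have no order. Its features had been kept through control arrays only. A value of control over DCM on them describes these features and does not test a difference. The approximate bound, whose control mean includes Con3 and Con4, was 1.09-fold over the 7 arrays without DoCM8 and 1.05-fold over all 8. mmu-miR-667 was above background on DoCM5, DoCM6 and Con3. Its glog2 values ranged from 0.94 to 2.71 in DCM and from 1.34 to 1.95 in control, and on the other arrays they have no order. Its fitted log2 difference was 0.38 over the 7 arrays without DoCM8 (SE 0.43, limma adjusted p = 1.0), 0.22 over all 8 arrays and 0.06 without DoCM5. With DoCM7 also left out of the 7 arrays it was 0.90, and mmu-miR-667 was called, beside 13 of 438 names. Under 75th percentile scaling over detected names it was -0.38. All these fits include arrays on which mmu-miR-667 was not above background.

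Over the 7 arrays without DoCM8, the log2 difference was below 0 in 6 of 9 detected members, with a median of -0.37, beside 216 of 438 names (49.3%) and a median of 0.0. The 6 include cfa-miR-376a and mmu-miR-300, whose direction the filter favoured, and the count is a description only. Over all 8 arrays 5 of 9 were below 0 with a median of -0.32, beside 219 of all 438 names (50%), and without DoCM5 5 of 9 with a median of -0.02, beside 49.8%. The 2 further murine names of the region did not pass either limit. mmu-miR-3070a differed by -0.16 (SE 0.46, limma adjusted p = 1.0) and mmu-miR-3070b-3p by 0.31 (SE 0.34, limma adjusted p = 1.0) over the 7 arrays without DoCM8.

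**Figure D4:**
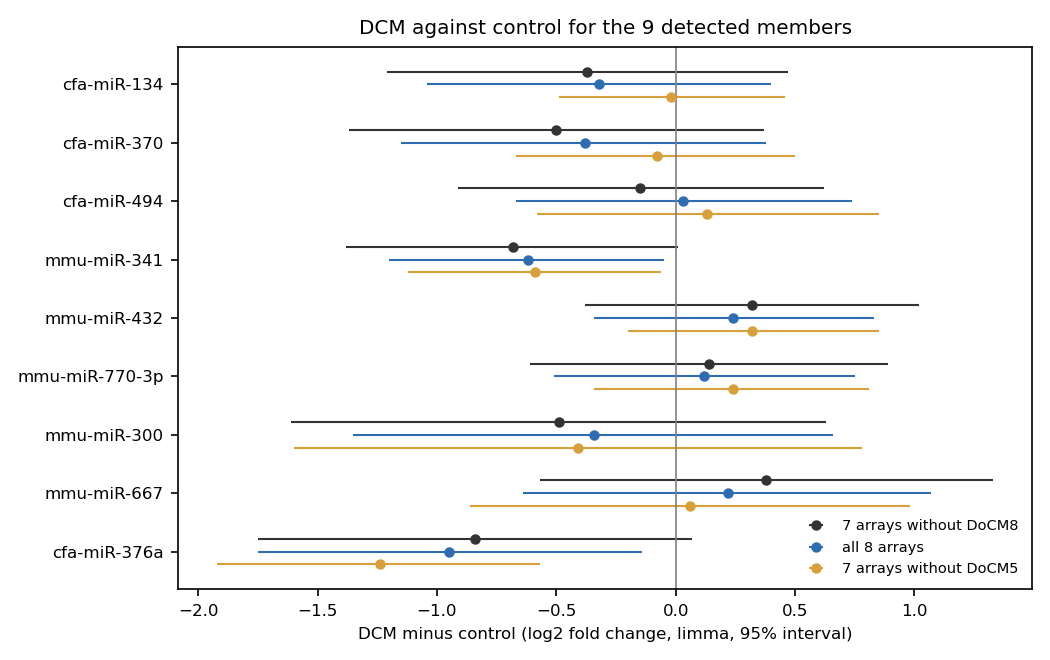
Difference between DCM and control on the log2 scale, with its 95% interval from limma, for the 9 detected members over 7 arrays without DoCM8 (black), all 8 arrays (blue) and 7 arrays without DoCM5 (yellow). The intervals of mmu-miR-341 and cfa-miR-376a lie below 0 in the blue and yellow sets only, cfa-miR-134 and cfa-miR-370 move to near 0 without DoCM5, and the values of cfa-miR-376a and mmu-miR-300 are fitted values of miRNAs that were below the detection limit in all DCM arrays.

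Blood cell markers were set beside these values. Over all 8 arrays, where 2 members were called lower, 2 of 7 erythrocyte names, 1 of 9 platelet names and 1 of 6 leukocyte names were called higher in DCM and none lower, with medians of 0.05, -0.06 and 0.09, beside 8 of all 438 names called higher. Without DoCM5, the same 2 members being called, 1 name of each of these lists was called higher and none lower, with medians of 0.05, -0.29 and 0.22, again beside 8 of 438 names. None of the 4 heart and skeletal muscle names was called in either set, with medians of 0.05 and 0.08. Whether blood cell RNA had a part in the values of the members was not tested.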

How the data were processed

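Serum miRNAs of 4 dogs with DCM and 4 healthy dogs were measured on one-colour arrays carrying canine and murine miRNA names. The authors deposited the output of Agilent Feature Extraction 10.7.3.1 for each array, in which each feature has a background-subtracted signal in intensity units, not normalized between arrays. The deposited value table held the same intensity values. Files name canFam2. The members and lists were chosen with earlier results of these data known.

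Control features were left out. Outlier-flagged features were left out of the mean signal on their array, but they were counted in the detection filter. Features passed the filter with 2 arrays of a group well above background, among all 8. Mean signals per name were normalized with the vsn model (own implementation, least trimmed squares quantile 0.9, tested on simulated data) over all 8 arrays, and compared with limma 3.58.1 in R 4.3.3 with Benjamini-Hochberg adjustment. Following the label of the sample named in the paper, DoCM8 was left out, and all 8 arrays and the arrays without DoCM5 were fitted too. For single members, exact two-sided permutation tests over arrays were run. Bounds were taken against the lowest signal well above background. The number of arrays limits the precision.

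Values on every array were given for members with at least 50% of their features kept, for members past both limits in any of the 3 array sets, and for cfa-miR-376a, which the paper lists. As alternatives, other sets of arrays (also with 1 array left out at a time), normalizations, background correction, filters, averages and outlier handling were tried, and a random block for the slide column. Normexp (offset 50) was run on the median signal. Gene order was taken from UU_Cfam_GSD_1.0, without coordinates. Mature sequences, and with them the planned grouping by seed (bases 2 to 8), were not used here.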

Additional observations from a re-analysis of the deposited data

Results flagged for a closer look

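Among 24 groups of 4 arrays examined for a single array far from the others, 2 were found, where chance gives about 1.2 (1 in 20 groups). For cfa-miR-376a in DCM, DoCM5 had a glog2 value of 2.13, with a gap of 0.95 of the group's range, but no DCM array was well above background for this miRNA and these values have no order. In the number of member features well above background, DoCM6 at 235 of 3160 was far above the other DCM arrays, with a gap of 0.85 of the range. The other DCM arrays held 194 to 200 such features, and the control arrays 203 to 251.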

How the results depend on the processing

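With 3 arrays of a group required, 6 members were detected, beside 397 of 1224 names (32.4%). Detection rose to 62 of 79 with 1 array enough, beside 987 names (80.6%). It rose to all members and names with the weaker flag for a positive and significant signal. It ranged from 7 to 9 members with one array left out (7 without Con1). The number of members called moved with the setting. Over all 8 arrays, without DoCM5 in place of DoCM8 and with 75th percentile scaling over detected names it was 2 of 9. That scaling over all names, quantile normalization, keeping outlier-flagged features and the slide column as a block (mmu-miR-341) each gave 1. So did vsn over the 7 arrays without DoCM8 (chosen after seeing the data). It was 3 of 62 with 1 array enough and 6 of 79 with no filter, none among the 9 detected members. With one more array left out of the 7 it ranged from 0 to 2: 2 without DoCM5, and 1 each without DoCM6 (cfa-miR-370, -0.91), DoCM7 (mmu-miR-667, 0.90) and Con4 (cfa-miR-376a, -1.09). Of 438 names, 11 were called, also with outlier-flagged features kept, 17 over all 8 arrays and 14 with the median over features. Quantile normalization, the slide block and vsn over 7 arrays each gave 12. Without DoCM5 in place of DoCM8 it was 23, as with scaling over detected names. Normexp gave 2 and one array left out 9 to 32 (28 without DoCM5, 32 without DoCM6). It was 41 of 1224 with no filter, 26 of 987 with 1 array enough and 7 of 349 with at least 50% of features kept. The split into higher and lower names was 6 to 5, and 4 to 7, 2 to 21 and 4 to 8 under scaling over all names, scaling over detected names and quantile normalization.

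After adjustment, 1 member was called under 75th percentile scaling over detected names, cfa-miR-376a (limma adjusted p = 0.0361), on the 1 feature that passed the filter through control arrays only, where the median of all names shifted by -0.25. Over all names that scaling shifted it by 0.11. The log2 difference of mmu-miR-341 stayed below 0 under all 21 alternatives, between -0.80 and -0.15, with limma p between 0.032 and 0.253. That of cfa-miR-376a, in most settings on a feature kept for its level in control arrays, ranged from -2.21 to -0.08. For cfa-miR-494 it was 0.03 over all 8 arrays, 0.13 without DoCM5, 0.20 with 75th percentile scaling over all names, 0.06 with no filter, 0.07 with 1 array enough and 0.22 with the median over features. Scaling over detected names gave -0.20 for mmu-miR-432, -0.38 for mmu-miR-667 and -0.34 for mmu-miR-770-3p. Scaling over all names gave -0.02 for mmu-miR-667, no filter -0.06 for mmu-miR-667 and -0.13 for mmu-miR-770-3p, and 1 array enough -0.05 for mmu-miR-770-3p. With one array left out, cfa-miR-134 ranged from -0.67 to 0.06 (without DoCM5) and mmu-miR-770-3p from -0.05 (without DoCM7) to 0.33. For mmu-miR-432 the range was 0.15 (without DoCM7) to 0.47. The cause of these changes was not tested. No paired analysis was possible because the replicate numbers are not shared between the groups; the slide column entered as a random block.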
